A study of Mus musculus with 4 samples.

Results

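The genes described here are 37 genes of glucose uptake, glycolysis and the response to low oxygen, measured by RNA-seq in mouse CD4 T cells. They were taken by symbol from a table of 52636 Ensembl gene IDs, and the rule that picks them uses no measured value, though the set was drawn up with earlier results of these data known. By role they were 5 genes of glucose and lactate transport, 10 of upper glycolysis, 8 of lower glycolysis and lactate dehydrogenase, 4 regulators of flux, and 10 genes of the hypoxia-inducible factor (HIF) and its targets. Aldoa has 2 Ensembl IDs in the table, of which the main one (ENSMUSG00000030695) was used, and the other held 10 to 13 counts per library.

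The libraries came from naive CD4 T cells of the spleen of C57BL/6 mice, 2 with the label E4BP4-cKO and 2 with the label wild-type. Nfil3 encodes E4BP4, a basic leucine zipper transcription factor, and cKO is read as conditional knockout. For that allele the sources used here give no Cre driver and no deleted exons. Cells of both groups were cultured for 3 days in the same medium, which favours T follicular helper (Tfh) cells. It held the cytokines IL-6 and IL-21, each at 10 ng/ml, and blocking antibodies, at 10 µg/ml for IFN-γ and for IL-4 and at 20 µg/ml for TGF-β. Neither the age of the mice nor the number of animals behind a group is stated, so p-values measure the spread between these libraries. That spread may be technical, between animals, or both, and this was not tested.

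The targeted gene went against its label. E4BP4-cKO replicates 1 and 2 held 4649 and 3965 counts of Nfil3, while wild-type replicates 1 and 2 held 290 and 377. Whether the counted exons include the deleted ones is not known here. Nor was it tested whether the labels of the groups were exchanged, in which case every direction given here would turn. Groups are named by label only, and differences are not described as effects of the deletion. Libraries held 19057077 to 26579592 counts, and 1 count was worth 0.0385 to 0.0546 CPM, the count scaled to library size with TMM factors. All 10 T cell markers were detected, with summed levels of 4093 to 4594 CPM in E4BP4-cKO and 4492 to 4532 CPM in wild-type, and of the Tfh genes Bcl6 stood at 13.4 to 20.7 CPM and Cxcr5 at 5.73 to 8.57 CPM over the 4 libraries.

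Glycolysis splits glucose into pyruvate, which lactate dehydrogenase turns into lactate when glycolysis runs fast. Activated T cells rely on it heavily: they take up more glucose, make more of the enzymes and export lactate with protons. The transcription factor HIF-1 is a main inducer of these genes. Prolyl hydroxylases mark its alpha subunit for destruction in the presence of oxygen, and in T cells antigen receptor and cytokine signals also raise it, without low oxygen.

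Of the 37 genes, 9 were higher and 2 lower in E4BP4-cKO than in wild-type. These were called by edgeR's quasi-likelihood test at a Benjamini-Hochberg adjusted p under 0.05 over all 15503 genes tested, of which 14.2% were called, 7.68% as higher and 6.53% as lower. All 37 passed the filter on low counts. The higher genes were the transporter genes Slc2a3 and Slc16a3, the enzyme genes Aldoc, Eno3 and Pfkfb4, and the HIF target genes Ero1l, Vegfa, Hilpda and Ndrg1. The lower genes were the transporter gene Slc16a1 and the enzyme gene Ldhb. The share called was 29.7% of the members, and the median log2 fold change was 0.13, against 0.02 over all genes tested. A gap between the groups alone says little in these data, since the groups did not overlap in 68.2% of all genes tested, and in 24 of the 37 members.

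These calls rest on 2 libraries a group. The number of members called higher and lower was 2 and 0 without E4BP4-cKO replicate 2, which left Slc2a3 and Ero1l. It was 6 and 0 without wild-type replicate 1, 7 and 3 in the fit that dropped E4BP4-cKO replicate 1, and 9 and 2 in the one that dropped wild-type replicate 2. Calls over all genes fell as well, to 246 higher and 74 lower in the fit without E4BP4-cKO replicate 2. They were 528 and 175 without wild-type replicate 1. None of the 11 called genes changed sign in these fits, which could hardly be otherwise, since the groups did not overlap for any of them. Each such fit has a group of 1 library, which is assumed to vary as the other group does.

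**Figure D1:**
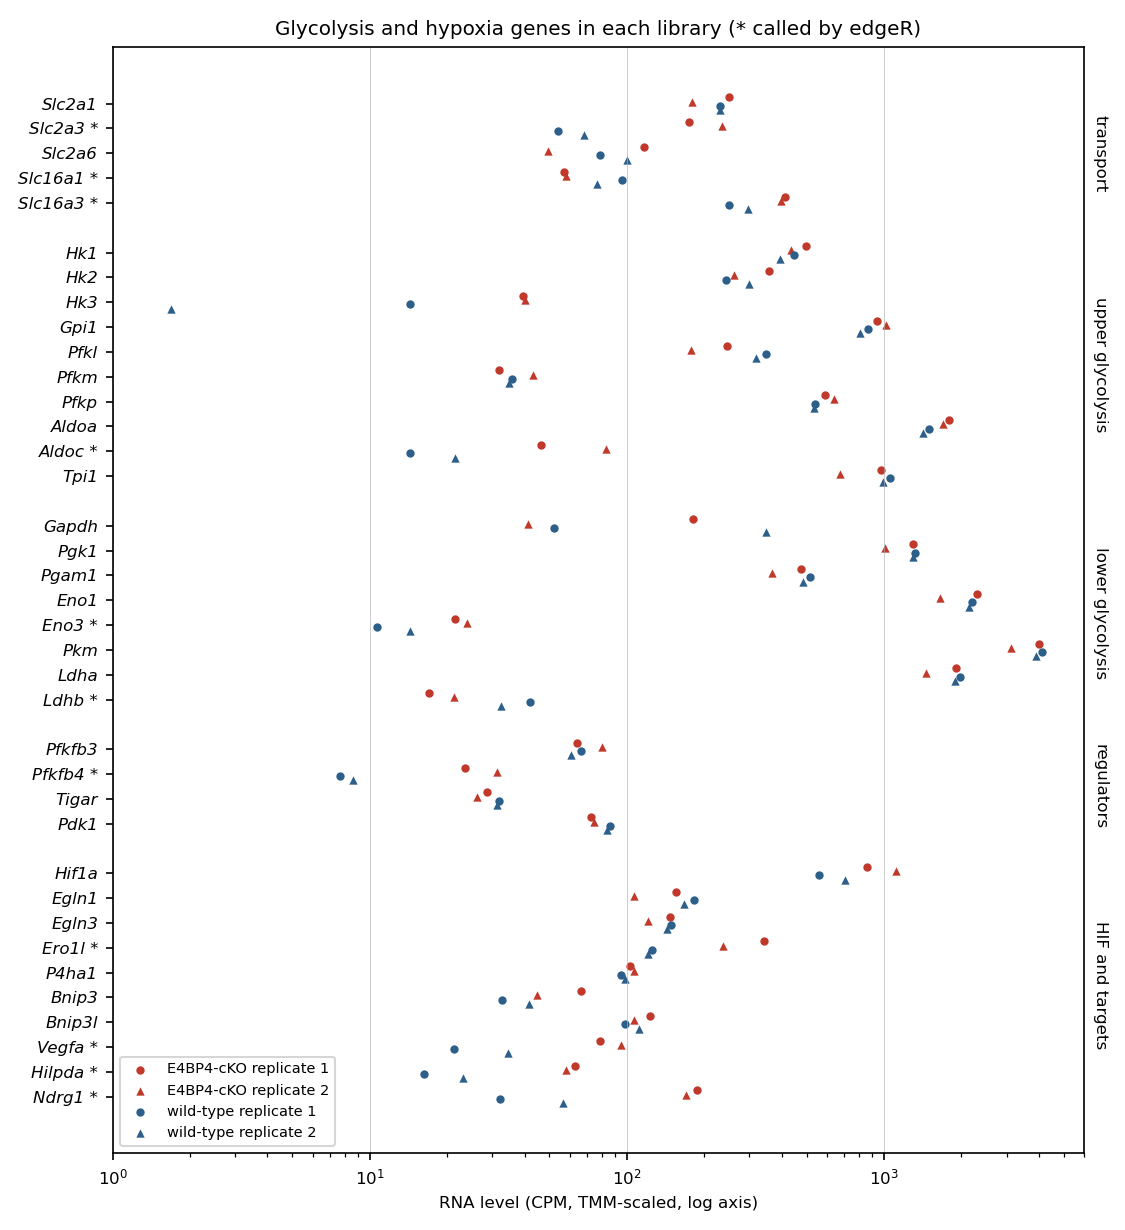
RNA levels of the 37 genes (CPM with TMM scaling, log axis) in each library, ordered by role, with red for E4BP4-cKO, blue for wild-type, circles for replicate 1, triangles for replicate 2 and an asterisk for genes called by edgeR. The abundant enzymes Pkm, Eno1, Ldha and Aldoa lie between 1424 and 4102 CPM with the groups close together, while the called genes lie lower and apart.

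**Figure D2:**
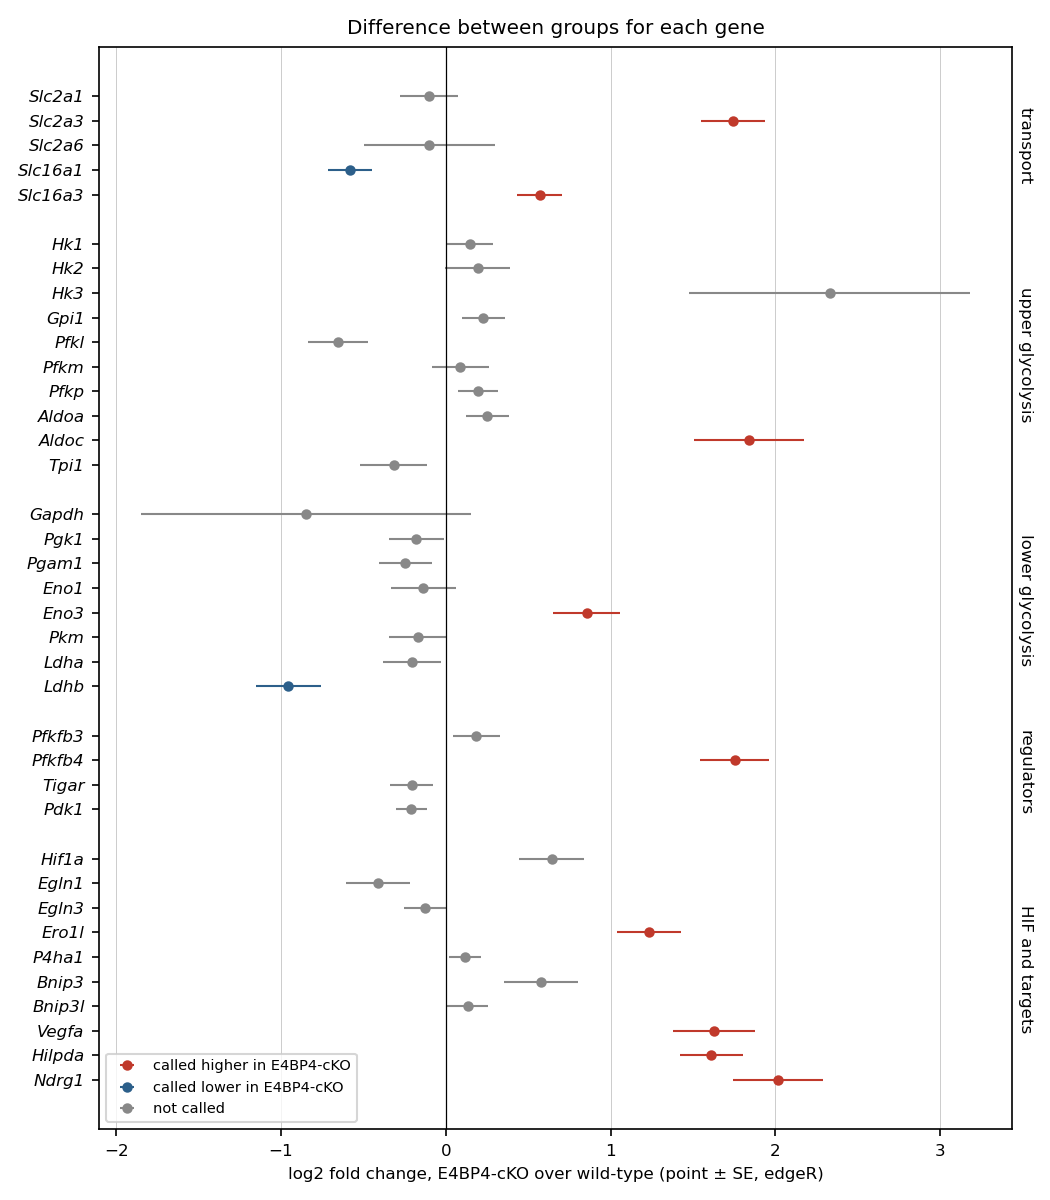
Log2 fold change of each gene, E4BP4-cKO over wild-type, with its standard error from edgeR, ordered by role. The 9 genes called higher run from 0.57 (Slc16a3) to 2.02 (Ndrg1), the 2 called lower are Slc16a1 and Ldhb, and Hk3 and Gapdh have the widest errors.

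Glucose enters T cells mainly through the carriers GLUT1, encoded by Slc2a1, and GLUT3, encoded by Slc2a3. Slc2a3 (ENSMUSG00000003153, chromosome 6, 122727809 to 122801640, minus strand, mm10) stood at 175 and 234 CPM in the 2 libraries labelled E4BP4-cKO and at 54.1 and 68.0 CPM in those labelled wild-type. Each E4BP4-cKO library was above both others, and the difference was 3.35-fold (log2 fold change 1.74, SE 0.19, edgeR adjusted p = 0.0201). Slc2a3 was called under all 10 alternative settings, with a log2 fold change from 1.53 to 1.93. Slc2a1 stood at 249 and 179 CPM against 230 and 230 CPM. Its E4BP4-cKO libraries lay on either side of the others (log2 fold change -0.10, SE 0.18, edgeR adjusted p = 0.715). Slc2a6, which encodes a carrier of lysosomal membranes, stood at 117 and 49.4 CPM against 78.5 and 99.95 CPM, and its groups overlapped as well.

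Lactate leaves and enters cells through the monocarboxylate carriers MCT1, encoded by Slc16a1, and MCT4, encoded by Slc16a3, a low-affinity carrier of cells that export much lactate. The 2 genes were called in opposite directions. Slc16a3 (chromosome 11, 120948480 to 120960868) stood at 411 and 397 CPM in E4BP4-cKO against 250 and 295 CPM in wild-type (log2 fold change 0.57, SE 0.13, edgeR adjusted p = 0.0491). Slc16a1 (chromosome 3, 104638668 to 104658462) stood at 57.2 and 57.9 CPM against 95.6 and 76.8 CPM (log2 fold change -0.58, SE 0.13, edgeR adjusted p = 0.0473). The groups did not overlap for either gene, but both p-values lay close to the threshold. Slc16a3 kept its call under 3 of the 10 alternatives (adjusted p from 0.00175 to 0.246) and lost it when any library was left out, while Slc16a1 kept it under 5 (adjusted p from 0.000439 to 0.174), among the libraries only without wild-type replicate 2.

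In upper glycolysis 1 of 10 genes was higher and 0 lower (10% called, against 14.2% of all genes tested). Hexokinase commits glucose to the cell, and Hk2 is its form induced on T cell activation. Hk2 stood at 358 and 260 CPM in E4BP4-cKO against 242 and 298 CPM in wild-type, and its groups overlapped (log2 fold change 0.19, SE 0.20, edgeR adjusted p = 0.524). Hk1, the widely expressed form, stood at 496 and 436 against 445 and 396 CPM (log2 fold change 0.15, SE 0.14). Hk3, the form typical of myeloid cells, stood at 39.6 and 40.2 CPM against 14.3 and 1.69 CPM. Its wild-type libraries differed 8.48-fold from each other, and a log2 fold change of 2.33 (SE 0.85) was not called (edgeR adjusted p = 0.118). With either wild-type library left out, which removes that difference and leaves the spread to E4BP4-cKO alone, it was called at log2 fold changes of 4.56 and 1.48 (edgeR adjusted p = 0.00197 and 0.0139), and by limma-voom at 3.09 (adjusted p = 0.0494).

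The phosphofructokinase genes, whose enzyme sets the pace of the pathway, were not called with all 4 libraries. Pfkp stood at 590 and 638 CPM in E4BP4-cKO against 540 and 534 CPM in wild-type (log2 fold change 0.19, SE 0.12, edgeR adjusted p = 0.309). Pfkl stood at 245 and 178 CPM against 347 and 318 CPM, with groups apart in the opposite direction (log2 fold change -0.65, SE 0.18, edgeR adjusted p = 0.0668). Pfkl was called lower without E4BP4-cKO replicate 1, with the spread from wild-type alone (edgeR adjusted p = 0.0340), and with DESeq2 (adjusted p = 0.00715). Pfkm, the muscle form, was lowest of the 3 at 31.9 to 43.3 CPM. Gpi1, which encodes glucose-6-phosphate isomerase, Aldoa, the main aldolase gene, and Tpi1, which encodes triosephosphate isomerase, had log2 fold changes of 0.23, 0.25 and -0.32 and were not called with all 4 libraries.

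Aldoc was the gene of upper glycolysis that was called. It encodes an aldolase best known from brain. Aldoc (chromosome 11, 78322968 to 78327781) stood at 46.3 and 82.7 CPM in E4BP4-cKO against 14.4 and 21.5 CPM in wild-type (log2 fold change 1.84, SE 0.34, edgeR adjusted p = 0.0333). Each E4BP4-cKO library was above both others. The call was lost without E4BP4-cKO replicate 2 (1.38, edgeR adjusted p = 0.0812) and also when wild-type replicate 1 was dropped (1.57, edgeR adjusted p = 0.0743).

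In lower glycolysis and lactate dehydrogenase 1 of 8 genes was higher and 1 lower (25% called, against 14.2% of all genes tested). Neither belongs to the abundant forms. Pkm, which encodes pyruvate kinase, stood at 3999 and 3134 CPM in E4BP4-cKO against 4102 and 3918 CPM in wild-type (log2 fold change -0.17, SE 0.17, edgeR adjusted p = 0.528). Ldha, the lactate dehydrogenase form that favours lactate, stood at 1904 and 1459 CPM against 1978 and 1898 CPM (log2 fold change -0.20, SE 0.17, edgeR adjusted p = 0.444). The enolase gene Eno1, the kinase gene Pgk1 and the mutase gene Pgam1 had log2 fold changes of -0.14, -0.18 and -0.25. E4BP4-cKO replicate 2 was the lowest library for each of Tpi1, Pgk1, Pgam1, Eno1, Pkm and Ldha. Without it the log2 fold changes of Pgk1, Eno1 and Pkm were 0.01, 0.10 and 0.01. Tpi1 was called lower without E4BP4-cKO replicate 1, a fit that keeps its lowest library as the only one of that group and takes the spread from wild-type (log2 fold change -0.61, edgeR adjusted p = 0.0491).

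The 2 called genes of this stretch have low levels. Ldhb (chromosome 6, 142490249 to 142507957), the lactate dehydrogenase form of oxidative tissues, stood at 17.0 and 21.3 CPM in E4BP4-cKO against 42.0 and 32.3 CPM in wild-type (log2 fold change -0.95, SE 0.20, edgeR adjusted p = 0.0396). Eno3, the muscle enolase gene (chromosome 11, 70657202 to 70662513), stood at 21.4 and 23.8 CPM against 10.7 and 14.3 CPM (log2 fold change 0.86, SE 0.20, edgeR adjusted p = 0.0496). Both had groups that did not overlap. Ldhb was not called without E4BP4-cKO replicate 1, E4BP4-cKO replicate 2 or wild-type replicate 1 (edgeR adjusted p from 0.0733 to 0.132), nor was Eno3 (0.0863 to 0.179). Eno3 also missed the threshold with upper-quartile factors and with scaling to total counts (edgeR adjusted p = 0.0523 and 0.0598).

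Gapdh, which encodes the dehydrogenase between Tpi1 and Pgk1 and often serves as a reference gene, stood apart from its neighbours. It had 4689 and 757 counts in E4BP4-cKO and 1138 and 8868 counts in wild-type, or 180, 41.3, 52.0 and 348 CPM. The 2 libraries of a group thus differed 4.36-fold in E4BP4-cKO and 6.69-fold in wild-type, and the difference between groups was smaller than that spread (log2 fold change -0.85, SE 1.00, edgeR adjusted p = 0.585). Without wild-type replicate 2 its log2 fold change was 1.09. With no filter on low counts edgeR called it lower, at a log2 fold change of -0.86 (adjusted p = 7.21e-08), though its groups overlapped. Per length it stood at 9.999 to 84.2 CPM per kb, below the lowest library of Tpi1 (245 CPM per kb) and of Pgk1 (449 CPM per kb). The sources used here do not say how reads that fit both Gapdh and its processed copies were counted. The copies of Gapdh examined were Gapdh-ps14 and Gapdh-ps15 alone, which held at most 3 counts in any library. Reads on any other copy are not given here, and the part of multiply fitting reads in the Gapdh values was not tested.

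**Figure D3:**
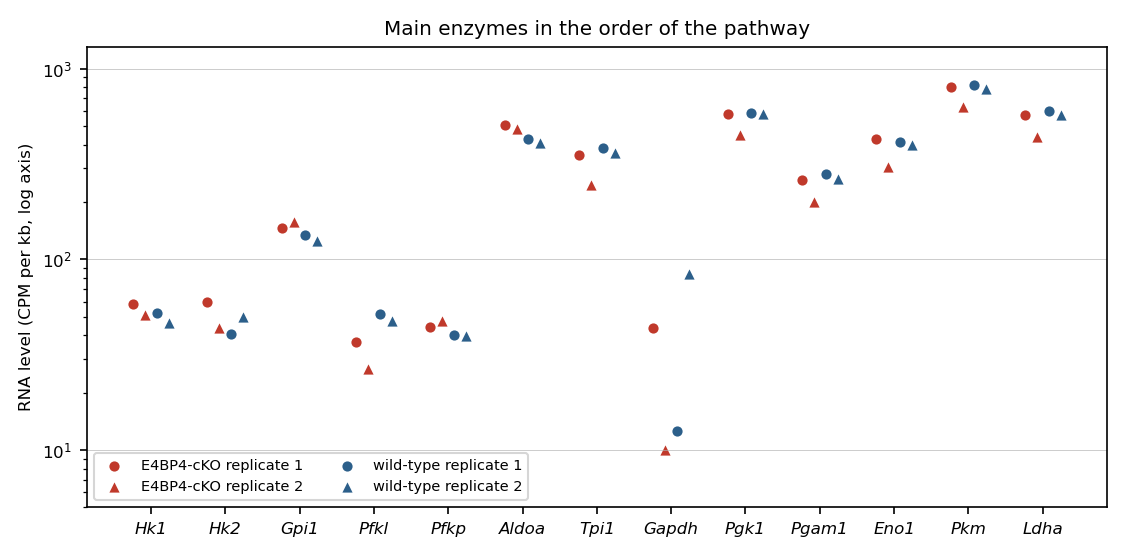
Levels of the main enzyme genes in the order of the pathway (CPM per kb of gene length, log axis), with red for E4BP4-cKO, blue for wild-type, circles for replicate 1 and triangles for replicate 2. Gapdh spreads from 9.999 to 84.2 CPM per kb over the 4 libraries, while its neighbours Tpi1 and Pgk1 stay between 245 and 589 CPM per kb.

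Among the regulators of flux 1 of 4 genes was higher and 0 lower (25% called, against 14.2% of all genes tested). The PFKFB enzymes make and remove fructose 2,6-bisphosphate, the strongest activator of phosphofructokinase. Pfkfb4 (chromosome 9, 108991778 to 109032228) stood at 23.5 and 31.3 CPM in E4BP4-cKO against 7.63 and 8.59 CPM in wild-type, a 3.37-fold difference (log2 fold change 1.75, SE 0.21, edgeR adjusted p = 0.0213). The groups did not overlap, and the call was lost only without E4BP4-cKO replicate 2 among the 10 alternatives (1.55, edgeR adjusted p = 0.0513). Pfkfb3, its relative with strong kinase activity, stood at 63.9 and 80.4 CPM against 66.1 and 60.6 CPM, and its groups overlapped (log2 fold change 0.19, SE 0.14, edgeR adjusted p = 0.395). Pdk1, a known HIF target, encodes a kinase that inhibits pyruvate dehydrogenase in mitochondria. It stood at 72.8 and 74.4 CPM against 86.2 and 83.9 CPM (log2 fold change -0.21, SE 0.09, edgeR adjusted p = 0.172). Tigar, which encodes a phosphatase that lowers fructose 2,6-bisphosphate, stood at 26.0 to 31.8 CPM and was not called.

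Of the 10 genes of HIF and its targets 4 were higher and 0 lower (40% called, against 14.2% of all genes tested). Their median log2 fold change was 0.61. Their summed level was 2129 and 2163 CPM in E4BP4-cKO and 1311 and 1504 CPM in wild-type, to which Hif1a contributed most. Hif1a, the alpha subunit gene, stood at 861 and 1119 CPM against 559 and 708 CPM. Its groups did not overlap, but it was not called (log2 fold change 0.64, SE 0.20, edgeR adjusted p = 0.0812). It was called in 3 of the 10 alternatives. These were DESeq2 (adjusted p = 0.00998), edgeR under the replicate block (adjusted p = 0.0383) and edgeR with no filter on low counts (adjusted p = 0.000751). HIF-1 is controlled mainly through its protein, which was not measured here.

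The 4 called targets differed by 2.35-fold to 4.04-fold. Ndrg1 (chromosome 15, 66929321 to 66969640), a stress-response gene that in T cells is tied to anergy, stood at 188 and 170 CPM in E4BP4-cKO against 32.1 and 56.4 CPM in wild-type (log2 fold change 2.02, SE 0.27, edgeR adjusted p = 0.0244). Vegfa (chromosome 17, 46016993 to 46032369), the gene of the vascular growth factor, stood at 78.7 and 94.8 CPM against 21.3 and 34.6 CPM (log2 fold change 1.63, SE 0.25, edgeR adjusted p = 0.0276). Hilpda (chromosome 6, 29272488 to 29275446), whose product inhibits the breakdown of lipid droplets, stood at 62.8 and 57.8 CPM against 16.3 and 23.1 CPM (log2 fold change 1.61, SE 0.19, edgeR adjusted p = 0.0213). In all 3 genes every E4BP4-cKO library was above every wild-type library, and the call was lost only without E4BP4-cKO replicate 2 among the 10 alternatives (edgeR adjusted p from 0.0541 to 0.0791). Ero1l (chromosome 14, 45283092 to 45318572), an oxidase of the endoplasmic reticulum that drives disulfide formation, stood at 343 and 237 CPM against 126 and 121 CPM (log2 fold change 1.23, SE 0.19, edgeR adjusted p = 0.0287) and lost its call only without wild-type replicate 1 (edgeR adjusted p = 0.0638).

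The other 5 targets were not called with all 4 libraries. Egln1 and Egln3, which encode prolyl hydroxylases that act on HIF and are themselves induced by it, stood at 155 and 106 against 182 and 166 CPM and at 147 and 121 against 149 and 143 CPM. Neither was called (log2 fold changes -0.41 and -0.12, edgeR adjusted p = 0.196 and 0.542), but Egln1 was called lower without E4BP4-cKO replicate 1, where its lowest library is the only one of that group and the spread comes from wild-type (edgeR adjusted p = 0.0450). The mitophagy receptor genes Bnip3 and Bnip3l differed by a log2 fold change of 0.58 (SE 0.23) and of 0.13 (SE 0.13), and P4ha1, a collagen prolyl hydroxylase gene, by 0.12 (SE 0.10). The Bnip3 count is uncertain, since 22.3% of its exon bases are also covered by the antisense gene Gm45507. Other members share exon bases with another gene too. The share was 15.3% for Pkm, 11.5% for Gpi1, 10.7% for Pfkm, 8.43% for Ndrg1 and 8.11% for Hif1a. It was at most 5.58% for the rest. The part of such overlaps in the counts was not tested. Genes of the pathway that are widely used as HIF targets, Slc2a1, Pgk1, Ldha and Pdk1, had log2 fold changes from -0.10 to -0.21 with all 4 libraries.

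Sequences before the transcription start are shown for 4 genes called higher and for Ldha and Pgk1, known HIF targets that were not called, because the core of the HIF binding site was present on both sides of that division. Each is the 250 bases before a RefSeq start (GRCm38.p6), read 5′ to 3′ along the gene. Capitals mark ACGTG and GCGTG, the core motif, or their complements CACGT and CACGC, on either strand. Overlapping matches, as in the E-box CACGTG, count as 1.
Hilpda (called higher, plus strand, chr6:29272376-29272625): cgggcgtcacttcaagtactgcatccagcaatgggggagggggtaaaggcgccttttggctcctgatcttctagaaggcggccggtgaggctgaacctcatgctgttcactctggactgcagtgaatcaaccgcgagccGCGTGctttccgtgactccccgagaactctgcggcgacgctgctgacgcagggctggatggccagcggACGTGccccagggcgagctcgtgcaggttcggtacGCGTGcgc
Pfkfb4 (called higher, plus strand, chr9:108991652-108991901): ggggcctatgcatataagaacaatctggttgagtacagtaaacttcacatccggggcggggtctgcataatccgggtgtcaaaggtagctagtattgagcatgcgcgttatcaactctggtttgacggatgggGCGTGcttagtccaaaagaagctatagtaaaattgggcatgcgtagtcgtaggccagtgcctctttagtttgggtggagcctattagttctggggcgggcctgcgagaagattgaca
Ero1l (called higher, minus strand, chr14:45318573-45318822): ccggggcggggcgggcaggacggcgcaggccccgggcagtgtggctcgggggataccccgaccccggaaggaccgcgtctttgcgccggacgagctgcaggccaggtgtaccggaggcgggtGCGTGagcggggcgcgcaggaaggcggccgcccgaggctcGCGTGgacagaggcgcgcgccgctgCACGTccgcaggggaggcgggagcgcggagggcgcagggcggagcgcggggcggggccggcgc
Slc16a3 (called higher, plus strand, chr11:120948817-120949066): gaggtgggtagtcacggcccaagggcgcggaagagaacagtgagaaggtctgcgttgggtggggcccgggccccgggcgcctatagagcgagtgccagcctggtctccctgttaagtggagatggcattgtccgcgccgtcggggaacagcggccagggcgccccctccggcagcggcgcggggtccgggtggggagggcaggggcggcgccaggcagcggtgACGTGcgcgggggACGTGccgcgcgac
Ldha (not called, plus strand, chr7:46845554-46845803): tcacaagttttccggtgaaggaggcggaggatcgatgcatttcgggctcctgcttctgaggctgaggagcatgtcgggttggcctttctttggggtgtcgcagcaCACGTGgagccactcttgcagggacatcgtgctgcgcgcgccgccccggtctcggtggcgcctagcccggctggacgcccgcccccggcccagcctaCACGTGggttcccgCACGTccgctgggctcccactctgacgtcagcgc
Pgk1 (not called, plus strand, chrX:106186850-106187099): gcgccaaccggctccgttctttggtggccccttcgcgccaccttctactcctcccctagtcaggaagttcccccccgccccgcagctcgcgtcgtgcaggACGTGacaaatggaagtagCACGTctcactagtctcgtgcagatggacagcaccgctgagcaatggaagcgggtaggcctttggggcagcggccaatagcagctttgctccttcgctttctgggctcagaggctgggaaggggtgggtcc
Hilpda has 2 RefSeq starts. The window shown, before the downstream start, held 3 cores, at 111, 43 and 8 bases before it, while the window before the upstream start (29272238 to 29272487) held 0. Ldha also has a second window, with 1 core. In the windows shown Ero1l held 3, Slc16a3 2 and Pfkfb4 1 at 117 bases, and Ldha held 3 and Pgk1 2. RefSeq starts were matched for 34 of the 37 genes, with 49 windows, leaving Slc2a3, Ndrg1 and Bnip3l unmatched, and 39 of these windows (79.6%) held at least 1 core. The share was 8 of 10 windows for 7 of the 9 genes called higher, 2 of 2 for genes called lower and 29 of 37 (78.4%) for genes not called. Over all genes 38.6% of the 32851 RefSeq windows held one. These are matches of letters, and binding was not measured.

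The pathway's gene families were next compared within each library. Levels of different genes were set side by side as CPM per kb, to lessen the effect of gene length on shares within a family. The length is that of the deposited table, which need not be that of the transcripts expressed, and the shares rest on it. Slc2a3 made up 18.4% and 32.7% of the 3 glucose transporter genes in E4BP4-cKO and 7.67% and 8.84% in wild-type, and per length Slc2a1 was the larger of the 2 main carriers, at 51.1 to 71.0 CPM per kb against at most 32.3 for Slc2a3. Without division by length the shares of Slc2a3 were 32.4% and 50.6% against 14.9% and 17.1%, and its CPM was above that of Slc2a1 in E4BP4-cKO replicate 2. Slc16a3 made up 85.7% and 85.1% of the 2 lactate transporter genes against 68.5% and 76.2%. Pfkfb4 made up 36.3% and 37.7% of the PFKFB pair against 15.2% and 18.0%. For each of these the groups were apart.

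The same held for Pfkp among the phosphofructokinase genes, at 48.1% and 53.6% against 38.6% and 40.1%, with Pfkl at 40.1% and 29.9% against 49.8% and 48.0%. Aldoc was at most 4.98% of the aldolase pair, Eno3 at most 4.28% of the enolase pair and Ldhb at most 4.29% of the lactate dehydrogenase pair in any library. Hk2 and Hk1 had like levels, and the share of Hk2 among hexokinase genes overlapped between groups, from 41.3% to 51.6%. Shares are given as values, with no test.

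**Figure D4:**
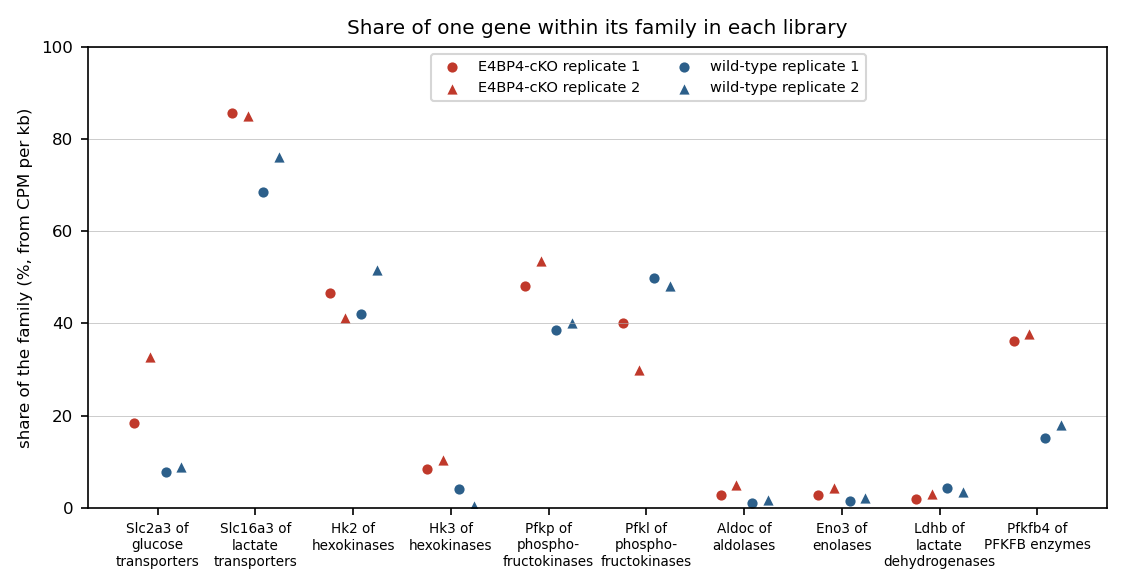
Share of 1 gene within its family in each library (%, from CPM per kb), with red for E4BP4-cKO, blue for wild-type, circles for replicate 1 and triangles for replicate 2. Slc2a3, Slc16a3, Pfkp and Pfkfb4 have a larger share in both E4BP4-cKO libraries, while Aldoc, Eno3 and Ldhb stay under 5% in all libraries.

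Summed by role, HIF and its targets had the largest ratio of group means, 1.52, and transport had 1.30. Upper glycolysis summed to 5505 and 5061 CPM in E4BP4-cKO against 5054 and 4828 CPM in wild-type. Lower glycolysis with lactate dehydrogenase summed to 10208 and 7703 CPM against 10230 and 10132 CPM. Together the 37 genes made up 1.54% to 1.86% of the counts of a library, and their groups overlapped in summed CPM.

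Genes around the pathway were taken from lists of related genes. Of 21 tested genes among 31 other glycolysis genes, 1 was higher and 0 lower (4.76% called, against 14.2% of all genes tested). The called gene was Pgm1 (chromosome 5, 64092950 to 64128351), of the phosphoglucomutase family, at 31.9 and 36.7 CPM against 22.99 and 18.3 CPM (log2 fold change 0.73, SE 0.17, edgeR adjusted p = 0.0495). Each fit that dropped 1 library lost the call of Pgm1. The other phosphoglucomutase gene listed, named Pgm2 here, was more abundant, at 84.6 to 120 CPM. Its groups overlapped, and it was not called (log2 fold change 0.08, SE 0.19, edgeR adjusted p = 0.787). Among 12 tested genes of the entry of pyruvate into mitochondria and its first steps there, 1 was lower (8.33% called). This was Pcx, which encodes pyruvate carboxylase, at 21.6 and 25.1 CPM against 79.95 and 52.4 CPM (2.83-fold lower, SE 0.23 on the log2 scale, edgeR adjusted p = 0.0274). Pcx was not called without E4BP4-cKO replicate 2. Of the 8 tested genes of the pentose phosphate pathway, which branches off after hexokinase, 0 were called by edgeR with the filter on low counts, by DESeq2 or by limma-voom, and 1 had an unadjusted edgeR p under 0.05. With no filter edgeR called Taldo1 higher and Rpia lower. Of the 5 tested copies of members, among them the retrocopy Eno1b at 30.1 to 44.3 CPM, 0 were called by these tools, and 0 had an unadjusted p under 0.05.

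The HIF pathway itself had 2 of 15 genes higher and 0 lower. The share called, 13.3%, was close to the 14.2% of all genes tested. Epas1, which encodes the alpha subunit HIF-2α, stood at 8.50 and 6.61 CPM in E4BP4-cKO against 0.69 and 1.26 CPM in wild-type (log2 fold change 2.94, SE 0.39, edgeR adjusted p = 0.0237). Cited2, whose product competes with HIF for its coactivators, stood at 172 and 154 CPM against 108 and 102 CPM (log2 fold change 0.63, SE 0.11, edgeR adjusted p = 0.0318). Epas1 was called in each of the 10 alternatives, while each fit that dropped 1 library lost the call of Cited2. Arnt, the gene of the partner subunit, had a log2 fold change of 0.12 (SE 0.11), and Vhl, whose product marks HIF for destruction, -0.43 (SE 0.13, edgeR adjusted p = 0.0834).

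Of 28 tested genes among 30 other HIF targets 5 were higher and 1 lower. The share called was 21.4%, against 14.2% of all genes tested. Nos2, the inducible nitric oxide synthase gene, stood at 134 and 153 CPM in E4BP4-cKO against 2.15 and 0.94 CPM in wild-type (log2 fold change 6.56, SE 0.34, edgeR adjusted p = 0.00822). Hmox1, the heme oxygenase gene, stood at 56.1 and 36.2 CPM against 13.0 and 10.8 CPM (log2 fold change 1.95, SE 0.25, edgeR adjusted p = 0.0232). Both genes were high in each E4BP4-cKO library and were called in each of the 10 alternatives. Plod1, a collagen lysyl hydroxylase gene, stood at 27.6 and 28.8 CPM against 14.9 and 14.1 CPM (log2 fold change 0.96, SE 0.14, edgeR adjusted p = 0.0274). Mxi1, whose product opposes Myc, stood at 64.9 and 72.2 CPM against 35.6 and 41.2 CPM (log2 fold change 0.84, SE 0.13, edgeR adjusted p = 0.0276). Ddit4, whose product inhibits mTORC1 signalling, was the other higher gene (0.76), and the carbonic anhydrase gene Car12 was the lower one (-0.78). The higher count was 2 in the fit without E4BP4-cKO replicate 2 and also 2 when wild-type replicate 1 was dropped, and each fit that dropped 1 library lost the call of Car12.

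Markers of other cells moved with the same libraries. The 10 mast cell and basophil markers summed to 1950 and 1463 CPM in E4BP4-cKO against 504 and 112 CPM in wild-type, with 5 of 10 higher, among them Cpa3 at 564 and 367 CPM against 112 and 41.6 CPM. The 12 macrophage and neutrophil markers summed to 242 and 145 CPM against 29.6 and 18.95 CPM, with 7 of 9 tested genes higher. S100a8 and Elane did not pass the filter and were not tested. Both were at 0 in both wild-type libraries. In E4BP4-cKO replicates 1 and 2, S100a8 held 172 and 4 counts and Elane 27 and 4. The 8 B cell markers summed to 108 and 47.9 CPM against 389 and 398 CPM, with 2 of 8 lower, Ighm and Igkc. Most of the wild-type sum came from these 2, at 242 and 243 CPM for Ighm and 99.6 and 106 CPM for Igkc. The other 6 were not called, and the groups overlapped for Ebf1. The 7 red cell markers summed to 22.3 and 9.61 CPM against 3.98 and 1.41 CPM, with 2 of 3 tested genes higher, Hba-a1 and Hbb-bt. Myeloid cells are known to express Hk3, Nos2 and Hmox1. In wild-type, replicate 1 was far above replicate 2 for Hk3 (14.3 and 1.69 CPM) and for the mast cell and basophil sum. Within that sum, Mcpt8 (142 and 7.81 CPM), Gata2, Hdc, Fcer1a, Ms4a2 and Cpa3 went this way. Kit (7.95 and 8.87 CPM), Cma1 (10.2 and 9.42 CPM), Mcpt4 and Tpsb2 did not. The macrophage and neutrophil sum differed less between the wild-type libraries. In E4BP4-cKO, replicate 1 was above replicate 2 for both sums but not for Hk3 (39.6 and 40.2 CPM). The part of these cells in the results was not tested, and in bulk samples fewer cells of a type and less RNA per cell cannot be told apart. The 8 proliferation markers summed to 1410 and 1330 CPM against 3081 and 2397 CPM, with 7 of 8 lower, and their part was not tested either.

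**Figure D5:**
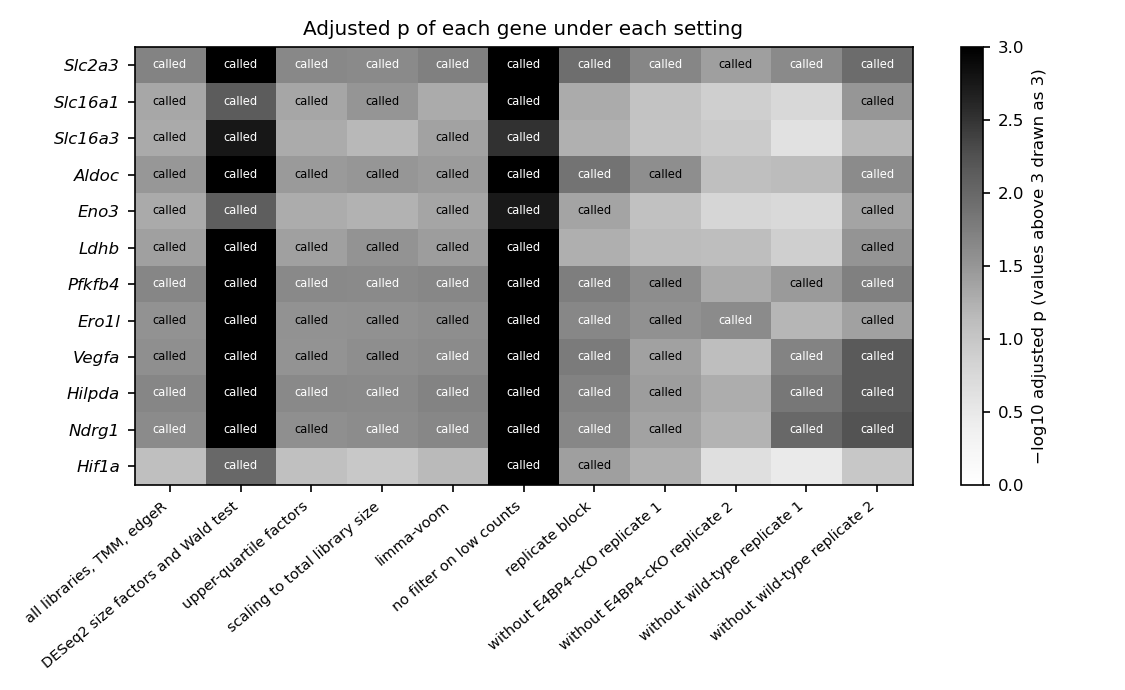
Adjusted p of the 11 called genes and Hif1a under each setting, drawn as −log10 of the adjusted p from white (0) to black (3 or more), with the word called where it is under 0.05. Slc2a3 is called in every column, and the column without E4BP4-cKO replicate 2 keeps Slc2a3 and Ero1l.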

How the data were processed

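RNA-seq was carried out on 4 libraries of CD4 T cells, grouped by the genotype in the labels, with replicate numbers from the titles. Values in the deposited table are raw read counts for each Ensembl gene. Per the submitters' processing notes, the tools were CASAVA, HISAT2 and featureCounts, with no version named, and the build was mm10. The sources used here do not say whether counting used strand or what became of multiply fitting reads. Gene lengths and coordinates are those of the deposited table.

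CPM was computed from the deposited counts with TMM factors. Genes were kept with filterByExpr, and edgeR 4.0.16 (glmQLFit, glmQLFTest) in R 4.3.3 compared the groups without a covariate, with two-sided p-values adjusted by Benjamini-Hochberg over 15503 genes. The 10 alternatives were DESeq2 1.42.0, limma 3.58.1 (voom), upper-quartile factors, scaling to total counts, no filter, the replicate number as a block, and leaving out each of the 4 libraries. Libraries of a group differed by more than sampling noise (chi-square per degree of freedom 23.5 and 29.9). On simulated counts for this comparison (15182 genes, 193 changed) edgeR recovered 35.7% of 2-fold and 81.1% of 4-fold changes, and 13 of its 125 calls were false. Far fewer genes changed there than were called in the data (2204 of 15503). The adjusted p depends on that number, so these rates need not hold for the data. The depth is 19057077 to 26579592 counts per library, and 3 counts, the floor used for detection, are 0.115 to 0.164 CPM.

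The members and gene lists were chosen with earlier results of these data known. Every member is accounted for. The rule gave values in each library to the called members and 16 fixed ones, and to the called genes of each other list, or the 4 with the lowest p where more than 5 were called. Slc2a6, Pfkl, Egln1, Arnt, Vhl, Ddit4, Car12, Eno1b, Pgm2, Gapdh-ps14 and Gapdh-ps15 were added after their values were seen. So were the named mast cell, basophil and B cell markers other than Cpa3.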

Additional observations from a re-analysis of the deposited data

How the results depend on the processing

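Among the 37 genes, 9 were called higher and 2 lower in the fit as described above. The number lower was 1 with limma-voom, 5 with no filter on low counts and 1 under the replicate block. Upper-quartile factors and scaling to total counts each gave 7 higher and 2 lower, without Slc16a3 and Eno3. Leaving out 1 library gave 2 to 9 higher and 0 to 3 lower. In the lists of related genes, 8 were higher and 2 lower. There 17 were higher with no filter, and 4, 4 and 9 were lower with DESeq2, scaling to total counts and no filter, while leaving out 1 library gave 3 to 8 higher and 0 to 4 lower. With no filter 28039 genes were tested, and 2680 were higher and 2237 lower. Scaling to total counts gave 1033 higher and 1636 lower genes over all genes tested, against 1191 and 1013.

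The shared replicate numbers were not taken as pairs: the libraries of 1 number did not deviate together (r = 0.058 across genes, which are not independent replicates). With the replicate block 9 members were called higher, of which 8 were also called without it, with Hif1a in place of Slc16a3. The lower member was Pfkl, and Slc16a1 and Ldhb were not called (adjusted p = 0.0507 and 0.0547).

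Of genes not called with all 4 libraries, 9 changed sign when 1 library was left out. Their log2 fold changes then ran from -0.36 to 0.13 (Slc2a1), -0.86 to 0.40 (Slc2a6), -0.057 to 0.42 (Hk2), -0.13 to 0.29 (Pfkm), -2.29 to 1.09 (Gapdh), -0.38 to 0.0082 (Pgk1), -0.40 to 0.10 (Eno1), -0.36 to 0.013 (Pkm) and -0.28 to 0.029 (Egln3). Without division by length the difference in share, E4BP4-cKO minus wild-type, was 3.81 percentage points for Hk3 (7.10 with it), 0.60 for Eno3 (1.79) and 16.1 for Pfkfb4 (20.4). The cause of these changes was not tested, except that the last follow from gene length. Genes under 3 counts per library are at the limit of this depth, and no member was.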

Other observations

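Gapdh varied between libraries of the same group more than almost any gene of its level. Of 2447 tested genes with a mean of at least 100 CPM, a level chosen after the values were seen, 2 had a ratio as large as that of Gapdh between the libraries of both groups, namely Gapdh itself and Xist. Between the wild-type libraries alone the ratio of 6.69 was reached by 5 genes, Gapdh, Xist, Prss34, Ccl6 and Mcpt8. Between the E4BP4-cKO libraries the ratio of 4.36 was reached by 3, Gapdh, Xist and Dgkk.

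E4BP4-cKO replicate 2 was the lowest library for 13 of the 37 genes and the highest for 12, so it was not low throughout. Wild-type replicate 1 was the lowest for 13 and wild-type replicate 2 for 7.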
